A study of Mus musculus with 4 samples.

Results

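Vegf and the other angiogenic signals described here are 10 genes: the ligands Vegfa, Vegfc, Vegfd, Angpt1 and Apln, and the receptors Kdr, Flt1, Flt4, Tek and Aplnr. They were found by their symbols among the 55471 gene identifiers of the count files, and each symbol matched 1 identifier. Single-cell RNA-seq (10x Chromium 3' v3 chemistry, which counts 1 unique molecular identifier, or UMI, for each captured RNA molecule) was applied to whole E18.5 mouse lung, from 2 wild type libraries and 2 libraries of Dnmt1 CKO lung, which carried Tbx4-rtTA, Tet-O-Cre and Dnmt1-D/D. In that genotype the Tbx4 element drives a doxycycline-dependent activator that switches on Cre, mainly in lung mesenchyme, and Cre deletes Dnmt1, the enzyme that copies CG methylation onto newly made DNA. The tissue had been digested with collagenase, DNase and dispase and its red cells lysed, so cell shares are those of the cells released and captured. The labels do not say that the 2 libraries of a genotype came from separate animals, and p-values then measure only the spread between these libraries.

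The cells kept numbered 5115 and 4914 for wild type and 4305 and 5677 for Dnmt1 CKO, at library medians of 5902 to 7668 UMIs per cell. Cells were clustered without the 10 genes among the variable genes and named from marker genes, and a name ending in "-like" stands for that. Levels are in CPM, a gene's UMIs per 1000000 UMIs of all cells of that class within 1 library, and values are given in the order wild type replicates 1 and 2, then Dnmt1 CKO replicates 1 and 2. Dnmt1 itself was at 27.6, 26.1, 9.73 and 12.7 CPM in mesenchymal-like cells, lower in Dnmt1 CKO by edgeR's quasi-likelihood test (log2 fold change -1.27, SE 0.21, adjusted p = 0.0065), and at log2 fold changes of -0.01 in epithelial-like and -0.03 in endothelial-like cells, neither of which passed. RNA of other cells was present in every class: the summed level of 8 epithelial markers in mesenchymal-like cells was 420, 394, 399 and 1015 CPM, so that Dnmt1 CKO replicate 2 stood apart. Wild type replicate 2 and Dnmt1 CKO replicate 1 contained transcripts of the Y-linked gene Ddx3y, and Dnmt1 CKO replicate 1 held 41149 UMIs of Xist as well, which matters for Vegfd and Apln because both lie on the X chromosome. In fits with sex as a covariate, any library with Ddx3y was coded male. Dnmt1 CKO replicate 1 was therefore coded male despite its Xist, and the covariate cannot account for both kinds of transcript in it. Pairs of libraries shared 8 to 16 cell barcodes.

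Vegfa is the ligand of Kdr (VEGFR2), the receptor that drives endothelial growth and survival, and of Flt1 (VEGFR1), which binds Vegfa tightly and limits its access to Kdr. Vegfc and Vegfd act mainly on Flt4 (VEGFR3), the receptor of lymphatic endothelium. Angpt1 activates Tek (Tie2), which steadies vessels that pericytes cover, and Apln acts on Aplnr, a G protein-coupled receptor of sprouting vessels. In the lung, epithelium is a known source of Vegfa, and the Car4-positive capillary cell (the aerocyte) is known to depend on it, while general capillary cells serve as the stem cells of the capillary bed.

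The genes lie, in GENCODE vM21 on GRCm38, at chr17:46016993-46032369 (Vegfa, minus strand), chr8:54077606-54187096 (Vegfc, plus), chrX:164373378-164402650 (Vegfd, plus), chr15:42424723-42676977 (Angpt1, minus) and chrX:48025146-48034853 (Apln, minus). The receptors lie at chr5:75932827-75978458 (Kdr, minus), chr5:147561604-147726011 (Flt1, minus), chr11:49609263-49652739 (Flt4, plus), chr4:94739289-94874976 (Tek, plus) and chr2:85136225-85139923 (Aplnr, plus). All 10 are protein-coding genes.

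Because Dnmt1 acts on CG pairs, the promoters of the 3 Vegf ligands are shown with each CG in capitals. The sequences run 5′ to 3′ on the gene's strand, from 250 bases before to 50 bases after the RefSeq start, on GRCm38.p6.
Vegfa promoter, chr17:46032328-46032627, minus strand: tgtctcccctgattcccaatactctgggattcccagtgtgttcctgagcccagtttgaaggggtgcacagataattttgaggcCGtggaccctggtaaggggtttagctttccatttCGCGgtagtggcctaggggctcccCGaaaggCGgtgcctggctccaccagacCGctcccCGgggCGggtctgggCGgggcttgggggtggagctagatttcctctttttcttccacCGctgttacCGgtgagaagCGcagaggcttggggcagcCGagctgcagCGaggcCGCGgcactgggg
Vegfd promoter, chrX:164373272-164373571, plus strand: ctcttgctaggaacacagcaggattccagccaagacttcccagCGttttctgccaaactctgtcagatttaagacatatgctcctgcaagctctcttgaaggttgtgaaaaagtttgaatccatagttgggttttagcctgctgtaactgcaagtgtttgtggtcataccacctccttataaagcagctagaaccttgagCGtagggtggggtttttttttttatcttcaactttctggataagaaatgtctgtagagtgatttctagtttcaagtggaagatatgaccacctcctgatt
Vegfc promoter, chr8:54077282-54077581, plus strand: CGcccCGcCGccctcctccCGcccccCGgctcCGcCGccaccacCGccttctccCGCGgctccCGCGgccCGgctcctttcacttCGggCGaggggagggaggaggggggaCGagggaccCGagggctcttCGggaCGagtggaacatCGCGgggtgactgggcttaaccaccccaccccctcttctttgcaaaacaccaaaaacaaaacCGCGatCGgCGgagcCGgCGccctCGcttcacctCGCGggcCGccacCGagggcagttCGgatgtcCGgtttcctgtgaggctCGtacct
CG was searched as those 2 letters, which read the same on both strands. The Vegfa promoter shown held 16 CG, more than 67.0% of the 32851 RefSeq promoters of this length, whose median was 7. A second RefSeq start of Vegfa, at chr17:46025114-46025413, held 10, more than 56.5%. The Vegfd promoter held 2, more than 14.1% of them, and the Vegfc promoter 35, more than 93.0%. Among the receptors, Kdr held 19, Flt1 29, Flt4 26 and Tek 3, and Apln, a ligand, held 15. At least 1 CG was present in 94.6% of all promoters. A promoter was matched for 8 of the 10 genes, Angpt1 and Aplnr being the others. Methylation was not measured in these libraries, and the counts describe the sequence only.

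Vegfa was highest in the epithelium. Its level in alveolar type 1-like cells, the flat cells of gas exchange, was 731, 944, 599 and 673 CPM, and in alveolar type 2-like cells, the makers of surfactant, 288, 372, 296 and 326 CPM. Over the 4 libraries the ranges of these 2 classes did not overlap each other or that of the next class, matrix fibroblast-like cells (mean 115 CPM). A cluster with 4.2 times the median UMIs held 195, 163, 141 and 355 of the 424, 377, 253 and 633 type 2-like cells. It scored 0.65 for type 1 markers beside 0.78 for type 2 markers. In type 2-like cells 10 type 1 markers summed to 7976, 7765, 6675 and 8870 CPM. In type 1-like cells they summed to 19987, 19887, 14382 and 19656 CPM. The part of this in the type 2 Vegfa level was not tested. Epithelial-like cells supplied 73.9%, 70.7%, 71.0% and 81.8% of all Vegfa UMIs and mesenchymal-like cells 23.0%, 25.9%, 23.9% and 13.0%. At 3000 UMIs per cell, a Vegfa UMI was seen in 80.2%, 84.8%, 80.0% and 78.6% of alveolar type 1-like cells, against 2.16%, 4.43%, 4.78% and 8.75% of immune-like cells, a class not known as a main source. Without thinning, these shares were 81.1%, 75.2%, 84.8% and 76.4% at medians of 4570 to 6032 UMIs, and 6.51%, 8.32%, 9.62% and 14.1% of immune-like cells at medians of 5726.5 to 8987 UMIs.

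In the epithelium no change in Vegfa passed the test. Over all epithelial-like cells it was at 371, 431, 326 and 317 CPM, so both Dnmt1 CKO libraries lay below both wild type libraries, at a log2 fold change of -0.34 (SE 0.19, unadjusted p = 0.118, edgeR adjusted p = 1.00). Alveolar type 1-like cells gave -0.39 (SE 0.20, unadjusted p = 0.0827, edgeR adjusted p = 0.957), again with no overlap between the groups. Alveolar type 2-like cells gave -0.11 (SE 0.22, edgeR adjusted p = 1.00), with overlapping groups. Without the alveolar type 2-like cluster of high UMI counts, the type 2 value turned to 0.29. By edgeR, 0 of 8 tested members passed in epithelial-like cells, where 0% of all 15287 genes did, 0 of 1 in alveolar type 1-like cells (0.135% of all genes) and 0 of 4 in alveolar type 2-like cells (0% of 13538 genes). None of these members had an unadjusted p under 0.05, and DESeq2 called 0 of them. Across all genes, 448 epithelial-like and 461 alveolar type 2-like genes had an unadjusted p under 0.05, and DESeq2 called 14 and 18.

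**Figure D1:**
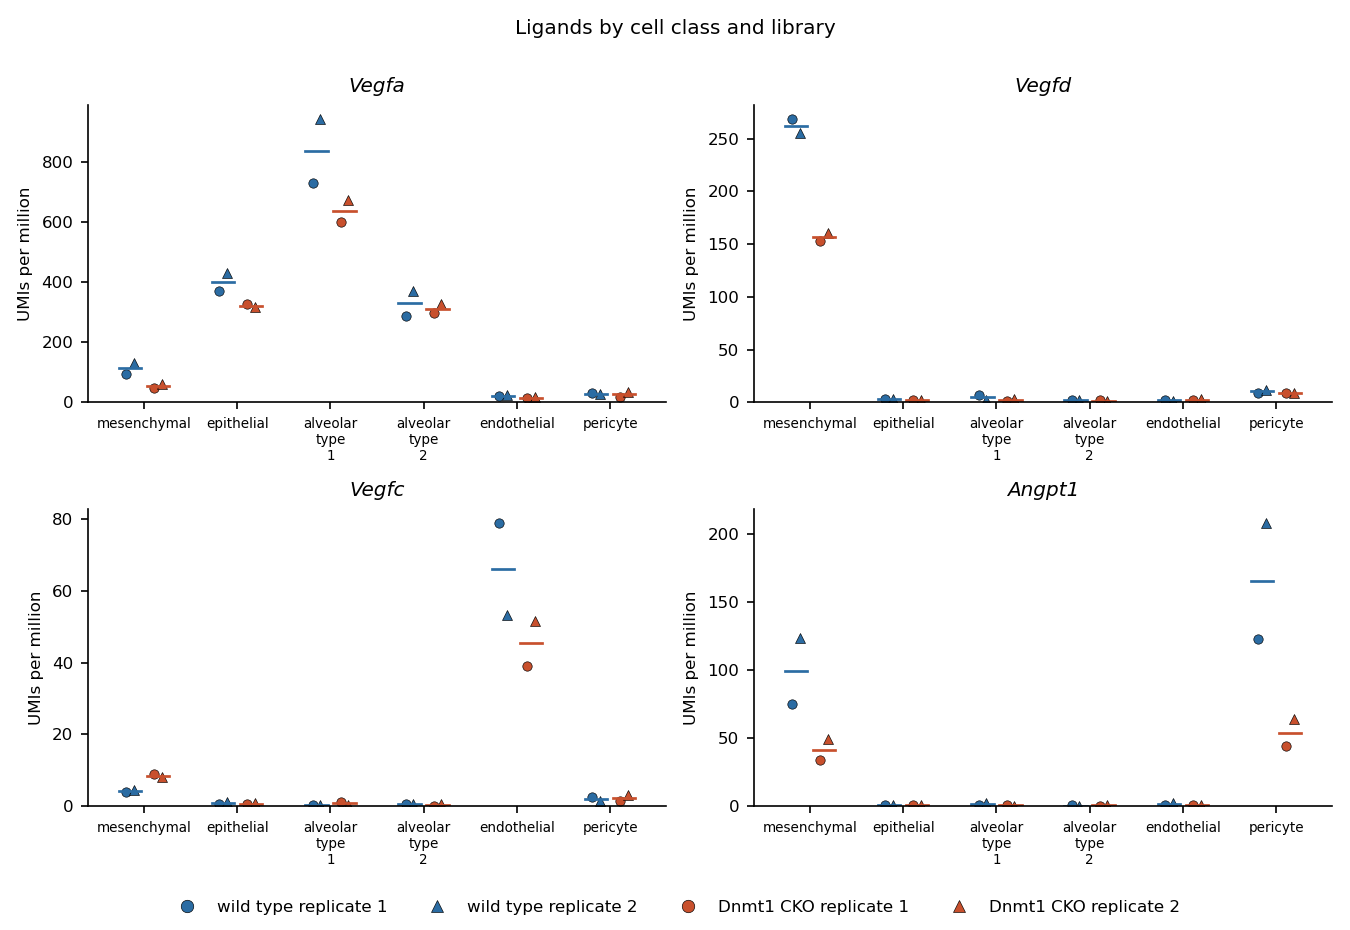
Levels of Vegfa, Vegfd, Vegfc and Angpt1 by cell class, in CPM on a linear axis from 0, with 1 point per library coloured by genotype and a line at each group's mean. Vegfa was highest in alveolar type 1-like cells (599 to 944 CPM), and its mesenchymal-like points separate by genotype (94.7 and 131 against 49.1 and 59.2 CPM).

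In mesenchymal-like cells, Vegfa, Vegfd and Angpt1 fell and Vegfc rose in Dnmt1 CKO. These are 4 of the 9 members tested there, Flt4 being too low to test, while 12.8% of all 16150 genes passed (5.78% lower and 7.03% higher). The count was 1 without Dnmt1 CKO replicate 1, 2 without wild type replicate 2 and 3 without either of the others. Vegfa was at 94.7, 131, 49.1 and 59.2 CPM, 2.10-fold lower in Dnmt1 CKO (log2 fold change -1.07, SE 0.21, edgeR adjusted p = 0.0115). Both Dnmt1 CKO libraries lay below both wild type libraries. At 3000 UMIs per cell, 23.4%, 30.9%, 13.7% and 16.0% of mesenchymal-like cells held a Vegfa UMI, and without thinning 37.0%, 54.4%, 27.9% and 27.6%. Without Dnmt1 CKO replicate 1 the fall was -0.93 with an edgeR adjusted p of 0.0632. Without Dnmt1 CKO replicate 2, the library with the highest epithelial marker level in this class, the log2 fold change was -1.22. The part of epithelial RNA in these Vegfa levels was not tested.

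Vegfd, which had the lowest CG count of the 4 ligands with a matched promoter, was almost wholly mesenchymal, with 95.7%, 96.5%, 96.1% and 95.1% of its UMIs in that class. Its level there was 269, 255, 153 and 161 CPM, 1.69-fold lower in Dnmt1 CKO (log2 fold change -0.76, SE 0.18, edgeR adjusted p = 0.0286). The groups did not overlap. The Vegfd call was lost without Dnmt1 CKO replicate 1 (-0.71, edgeR adjusted p = 0.245), without Dnmt1 CKO replicate 2 (-0.81, edgeR adjusted p = 0.118) and with sex as a covariate (-0.76, edgeR adjusted p = 0.0743).

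Angpt1, the Tek agonist, was likewise mesenchymal (95.6%, 96.8%, 96.4% and 95.4% of its UMIs). It was at 75.1, 124, 33.9 and 49.1 CPM, 2.40-fold lower in Dnmt1 CKO (log2 fold change -1.26, SE 0.26, edgeR adjusted p = 0.0159), and the call was lost without wild type replicate 2 (-0.92, edgeR adjusted p = 0.0747). Angpt1 levels in wild type replicate 2 were the highest and in Dnmt1 CKO replicate 1 the lowest.

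Vegfc ran the other way at a low level, with 67, 91, 178 and 137 UMIs in mesenchymal-like cells, or 3.89, 4.5, 8.93 and 8.04 CPM (log2 fold change 0.98, SE 0.25, edgeR adjusted p = 0.0341). The groups did not overlap, but of the fits that left out 1 library only that without Dnmt1 CKO replicate 2 kept the Vegfc call. Its edgeR adjusted p was 0.0734 without wild type replicate 1, 0.0901 without wild type replicate 2 and, for Dnmt1 CKO replicate 1 left out, 0.137, 0.0842 with sex as a covariate and 0.0651 without the unnamed clusters described next.

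The mesenchymal-like class was made of different clusters in the 2 genotypes. Matrix fibroblast-like cells numbered 1826 and 1694 in wild type against 100 and 408 in Dnmt1 CKO. A cluster led by Saa3 and Dazl, left unnamed because its score for the markers of a fibroblast subtype stayed under that set for a name, held 1 and 2 wild type cells against 960 and 1025 Dnmt1 CKO cells. A second unnamed cluster, led by Dcn and Lum, held 49 and 48 against 612 and 403, and smooth muscle-like cells numbered 74 and 91 against 391 and 335. Cycling mesenchymal-like cells numbered 106 and 41 against 225 and 173. These sizes depend on where cluster borders fall. At Leiden resolution 2.0, smooth muscle-like cells numbered 75 and 89 against 65 and 85. Matrix fibroblast-like cells of Dnmt1 CKO numbered 596 and 771 with doublets kept, and 604 and 813 with the 10 genes among the variable genes. Levels are therefore given for the clusters one by one.

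Within matrix fibroblast-like cells, Vegfd was at 361, 343, 333 and 300 CPM, or -0.15 on the log2 scale (SE 0.23, edgeR adjusted p = 0.963), with the Dnmt1 CKO libraries just under the wild type ones. At 3000 UMIs per cell, a Vegfd UMI was seen in 59.7%, 58.8%, 59.0% and 57.4% of these cells (79.6%, 81.9%, 76.0% and 74.5% unthinned, medians of 5822 to 7777 UMIs), against 0.75% to 1.25% of immune-like cells (2.09% to 3.09% unthinned). The Saa3-led cluster of Dnmt1 CKO stood at 125 and 130 CPM of Vegfd, under every matrix fibroblast-like value. Smooth muscle-like cells were at 68.9, 33.7, 24.9 and 20.9 CPM. In the Dcn-led cluster Vegfd was at 281, 249, 249 and 259 CPM and in adventitial fibroblast-like cells, which ensheath airways and larger vessels, at 220, 222, 287 and 180 CPM (log2 fold change 0.07, edgeR adjusted p = 0.962). In neither did the genotypes separate.

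Vegfa in matrix fibroblast-like cells was at 120, 174, 70.6 and 93.9 CPM, with both Dnmt1 CKO libraries below both wild type libraries (log2 fold change -0.79, SE 0.25, edgeR adjusted p = 0.33). The Saa3-led cluster was at 59.1 and 66.0 CPM of Vegfa, and the Dcn-led cluster at 81.5, 80.9, 49.4 and 60.9 CPM, again with lower Dnmt1 CKO libraries. The Vegfa log2 fold change was -0.86 in myofibroblast-like cells (edgeR adjusted p = 0.65), -0.08 in adventitial fibroblast-like cells (edgeR adjusted p = 0.966) and -0.19 in smooth muscle-like cells (edgeR adjusted p = 0.745).

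Angpt1 in matrix fibroblast-like cells was at 81.4, 139, 72.0 and 83.0 CPM, with overlapping groups (log2 fold change -0.47, SE 0.27, edgeR adjusted p = 0.784). In adventitial fibroblast-like cells it was at 120, 164, 60.3 and 91.3 CPM (log2 fold change -0.88, edgeR adjusted p = 0.234) and in smooth muscle-like cells at 47.3, 45.3, 16.6 and 27.7 CPM (log2 fold change -1.04, edgeR adjusted p = 0.0707). Both separated the genotypes without passing the test. The Saa3-led cluster was at 48.2 and 50.3 CPM of Angpt1, and myofibroblast-like cells, low throughout, were at 12.2, 14.9, 18.4 and 16.6 CPM (log2 fold change 0.30).

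By edgeR, no member passed in matrix fibroblast-like, adventitial fibroblast-like or myofibroblast-like cells alone, where 0.284%, 0.739% and 0.333% of all genes did. In smooth muscle-like cells 1 member passed, Flt1, against 10.1% of all genes. With both unnamed clusters left out of the mesenchymal-like class, 9.4% of all genes passed, and Vegfa (-1.32, edgeR adjusted p = 0.00899), Vegfd (-1.02, edgeR adjusted p = 0.0198) and Angpt1 (-1.29, edgeR adjusted p = 0.0363) were called lower.

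**Figure D2:**
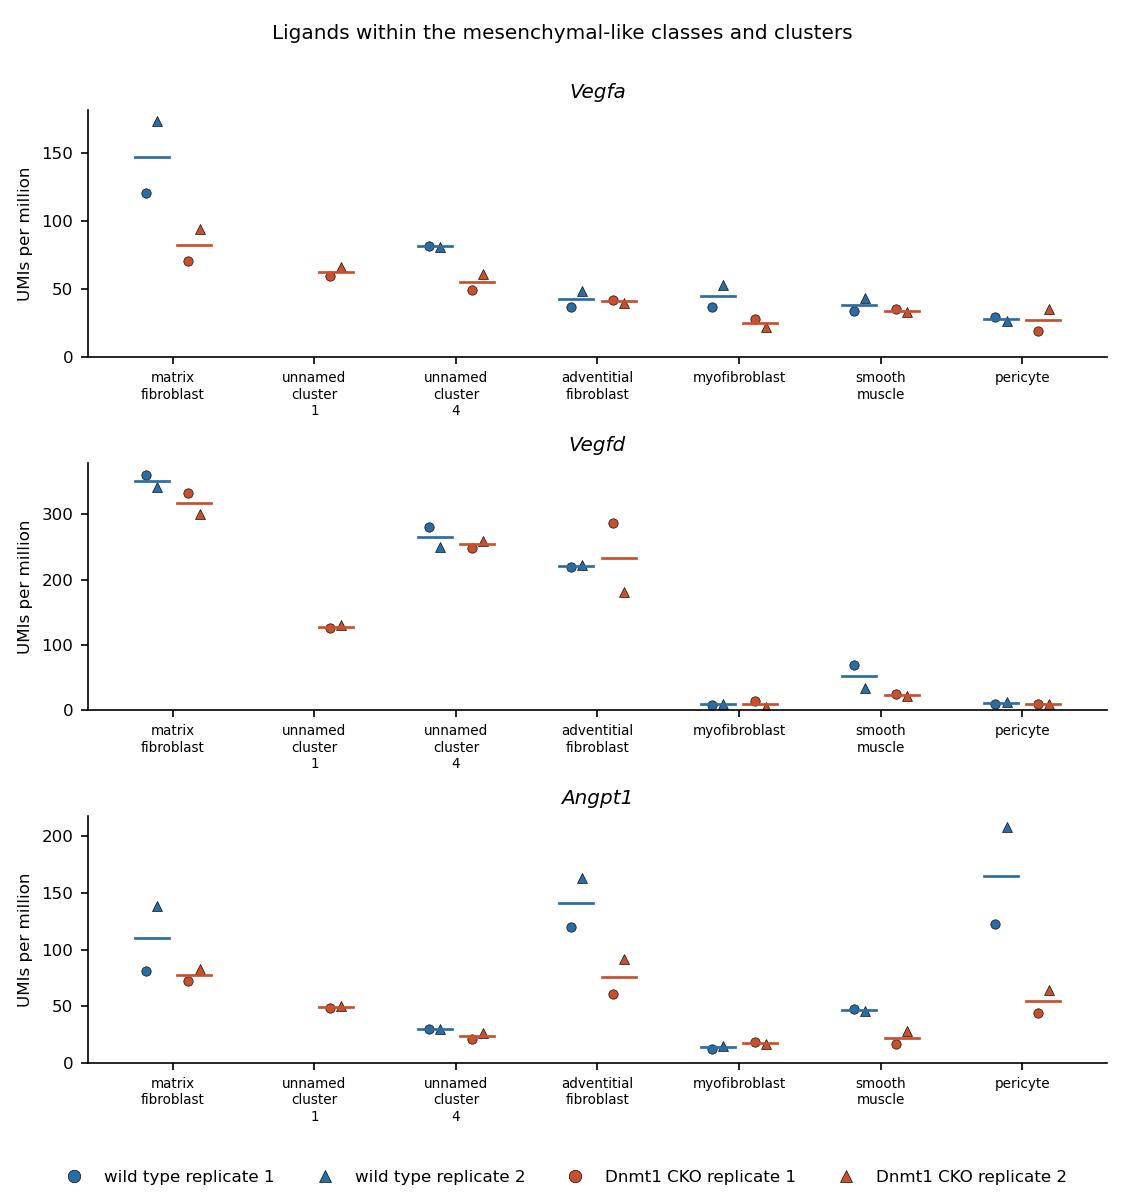
Levels of Vegfa, Vegfd and Angpt1 in each mesenchymal-like subclass, in CPM on a linear axis, with 1 point per library coloured by genotype, a line at each group's mean and points from fewer than 5 cells left out (the Saa3-led cluster is drawn as unnamed cluster 1 and the Dcn-led as unnamed cluster 4). Vegfd was at 300 to 361 CPM in matrix fibroblast-like cells of both genotypes and at 125 and 130 CPM in the Saa3-led cluster, whereas Angpt1 in pericyte-like cells was lower in both Dnmt1 CKO libraries.

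Pericyte-like cells, which wrap capillaries and are the nearest neighbours of Tek-bearing endothelium, held Angpt1 at 123, 208, 44.3 and 64.0 CPM. This was 2.81-fold lower in Dnmt1 CKO (log2 fold change -1.49, SE 0.31, edgeR adjusted p = 0.00514) with no overlap, over 212, 177, 101 and 126 cells. At 3000 UMIs per cell an Angpt1 UMI was present in 25.7%, 44.5%, 12% and 17.3% of pericyte-like cells (41.5%, 65.0%, 22.8% and 23.0% unthinned, medians of 5148 to 7441 UMIs), against 0.13% to 0.59% of immune-like cells (0.35% to 0.90% unthinned). The Angpt1 call in pericyte-like cells was lost without Dnmt1 CKO replicate 1 (-1.24, edgeR adjusted p = 0.323) and also without wild type replicate 2 (-1.10, edgeR adjusted p = 0.074). It was also lost at Leiden resolution 2.0 (-1.01, edgeR adjusted p = 0.471), where the pericyte-like class held 212, 176, 38 and 89 cells and a separate, unnamed cluster led by Ebf1, Abcc9 and Kcnj8 held 0, 0, 63 and 35. All 10 pericyte markers were found in the pericyte-like class, but their summed level was 13793, 12177, 5641 and 9046 CPM, lower in both Dnmt1 CKO libraries as Angpt1 was, and the part of this in the Angpt1 result was not tested. Vegfa in these cells was at 29.4, 26.4, 18.6 and 35.1 CPM, with overlapping groups. Dnmt1 itself did not pass in pericyte-like cells (log2 fold change -0.28, SE 0.36, edgeR adjusted p = 0.825), unlike in the mesenchymal-like class as a whole.

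Flt1 was the other member called in pericyte-like cells, 2 of 5 tested against 2.82% of all 8291 genes (1.07% lower and 1.75% higher). Its 13, 10, 9 and 49 UMIs gave 10.9, 7.8, 12.8 and 74.7 CPM, and the call of a rise (log2 fold change 2.08, SE 0.49, edgeR adjusted p = 0.0131) rests on Dnmt1 CKO replicate 2. Without that library Flt1 was at a log2 fold change of 0.46 (edgeR adjusted p = 0.864), without wild type replicate 2 at 1.83 (edgeR adjusted p = 0.0657), and DESeq2 did not call it (adjusted p = 0.112). The summed level of 8 endothelial markers in pericyte-like cells was 355, 222, 300 and 342 CPM. The part of RNA from other cells in the Flt1 level was not tested.

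In smooth muscle-like cells, Flt1 was at 114, 73.2, 10.0 and 25.1 CPM (log2 fold change -2.35, SE 0.40, edgeR adjusted p = 0.0053). That class joined 2 clusters whose proportions differed. One, with nearly all the Flt1, held 60, 61, 42 and 56 cells at 139, 105, 93.7 and 130 CPM, where the genotypes overlapped, while the other held 14, 30, 349 and 279 cells.

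Whether the fall of Vegfa in mesenchymal-like cells differed from that in epithelial-like cells was tested directly. The difference was -0.73 on the log2 scale (SE 0.18, unadjusted p = 0.00373, edgeR adjusted p = 0.072), which did not pass, as it did for 3.12% of all genes. The other ligands gave -1.08 for Angpt1 (edgeR adjusted p = 0.196), 1.27 for Vegfc (0.213) and -0.16 for Vegfd (0.786). Of the 9 members tested for this difference 0 passed, and 3 had an unadjusted p under 0.05. In epithelial-like cells Angpt1, Vegfc and Vegfd were at most at 3.46 CPM, so for these genes the difference rests on few epithelial UMIs.

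Vegfc was chiefly an endothelial transcript in wild type, where endothelial-like cells held 63.6% and 66.8% of its UMIs and mesenchymal-like cells 12.6% and 17.3%. In Dnmt1 CKO the endothelial part was 29.1% and 48.2% and the mesenchymal part 59.5% and 34.4%. Its highest level was in venous-like cells at 352, 343, 184 and 355 CPM, above every other class (arterial-like cells, next, had a mean of 69.6 CPM). Over all endothelial-like cells Vegfc was at 78.9, 53.1, 39.1 and 51.6 CPM, with the Dnmt1 CKO values below the wild type values (log2 fold change -0.49, SE 0.27), which did not pass.

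No receptor gene that could be tested passed in all endothelial-like, general capillary-like, Car4-positive capillary-like or lymphatic-like cells. Arterial-like, venous-like and cycling endothelial-like cells were not tested on their own. In endothelial-like cells 0 of 8 tested members passed edgeR's test, where 0.0254% of all 11805 genes did. Flt4 alone had an unadjusted p under 0.05, and DESeq2 called 0. In general capillary-like cells 0 of 8 passed (0% of all 9577 genes), with Apln alone under an unadjusted 0.05 and 0 called by DESeq2. Over all general capillary genes 441 had an unadjusted p under 0.05 and DESeq2 called 3. The Car4-positive and lymphatic classes fell below 20 cells in some libraries and were tested down to 5 cells. Car4-positive capillary-like cells gave 0 of 5 (0.137% of all genes passed, and Apln had an unadjusted p under 0.05) and lymphatic-like cells 0 of 2 (0% of 2946 genes, of which 56 had an unadjusted p under 0.05). DESeq2 called 0 members in both classes and 0 genes in the lymphatic class.

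Kdr was highest in Car4-positive capillary-like cells, at 1245, 1279, 1580 and 1221 CPM, a range that stood clear of all other classes. The 1580 CPM came from 13 cells. In general capillary-like cells Kdr was at 588, 759, 603 and 604 CPM (log2 fold change -0.11, SE 0.27) and in lymphatic-like cells at 637, 585, 576 and 771 CPM (0.17, SE 0.39). These 2 ranges overlapped, and cycling endothelial-like cells lay with them (mean 675 CPM). Venous-like cells (mean 405 CPM) and arterial-like cells (mean 235 CPM) were lower. The Kdr log2 fold change was 0.10 (SE 0.28) in Car4-positive and -0.04 (SE 0.24) in all endothelial-like cells. At 3000 UMIs per cell a Kdr UMI was present in 72.9%, 82.9%, 82.1% and 71.4% of general capillary-like cells (77.0%, 89.3%, 86.9% and 79.4% unthinned, medians of 3970 to 5211 UMIs), against 2.55%, 1.01%, 0.63% and 1.38% of immune-like cells (1.04% to 3.91% unthinned).

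Of all Kdr UMIs in a library, endothelial-like cells held 65.6%, 70.2%, 76.4% and 64.5%. A further 27.1%, 21.1%, 12.7% and 17.5% lay in 3 clusters with endothelial markers that stayed unnamed. The largest of these, 115 cells led by fibroblast genes at 5.24 times the median UMIs, was not marked by the doublet caller. Another, 67 cells at 0.16 times the median UMIs, was led by Scgb3a2, Sftpa1 and Sftpc. The last, 25 cells, was led by Ager, Cldn18 and other epithelial genes. Whether these 3 clusters held mixed RNA of several cell types was not tested. Counting these clusters as endothelial-like kept every member without a call. Outside the endothelium Kdr was also seen in secretory airway-like cells (133, 185, 120 and 108 CPM), ciliated airway-like cells (mean 91.6 CPM) and mesothelial-like cells (118, 96.7, 66.5 and 66.8 CPM).

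Flt1 did not set the capillary types apart. It was at 436, 512, 493 and 369 CPM in general capillary-like cells (log2 fold change -0.10) and 467, 321, 778 and 405 CPM in Car4-positive capillary-like cells (0.42, SE 0.31), and each of the 5 blood endothelial classes overlapped in range with the next, except that cycling endothelial-like cells (341 to 441 CPM) lay below venous-like and arterial-like cells. In lymphatic-like cells, by contrast, 0, 0, 0 and 1 UMI of Flt1 were counted.

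Flt4 was the lymphatic receptor in these data as well, at 689, 651, 627 and 863 CPM in lymphatic-like cells, of which there were 8, 6, 13 and 15. Its next class, Car4-positive capillary-like cells, had a mean of 86.8 CPM. Neither class separated the genotypes (log2 fold change 0.18, SE 0.39, in lymphatic-like cells). General capillary-like cells were at 65.4, 72.1, 67.6 and 69.9 CPM of Flt4. Over all endothelial-like cells Flt4 was higher in both Dnmt1 CKO libraries, at 81.7, 76.8, 120 and 102 CPM (log2 fold change 0.52, SE 0.22, unadjusted p = 0.0342, edgeR adjusted p = 0.954), without passing. The lymphatic-like cells held 17.2%, 12.2%, 42.0% and 31.8% of all Flt4 UMIs in the library.

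**Figure D3:**
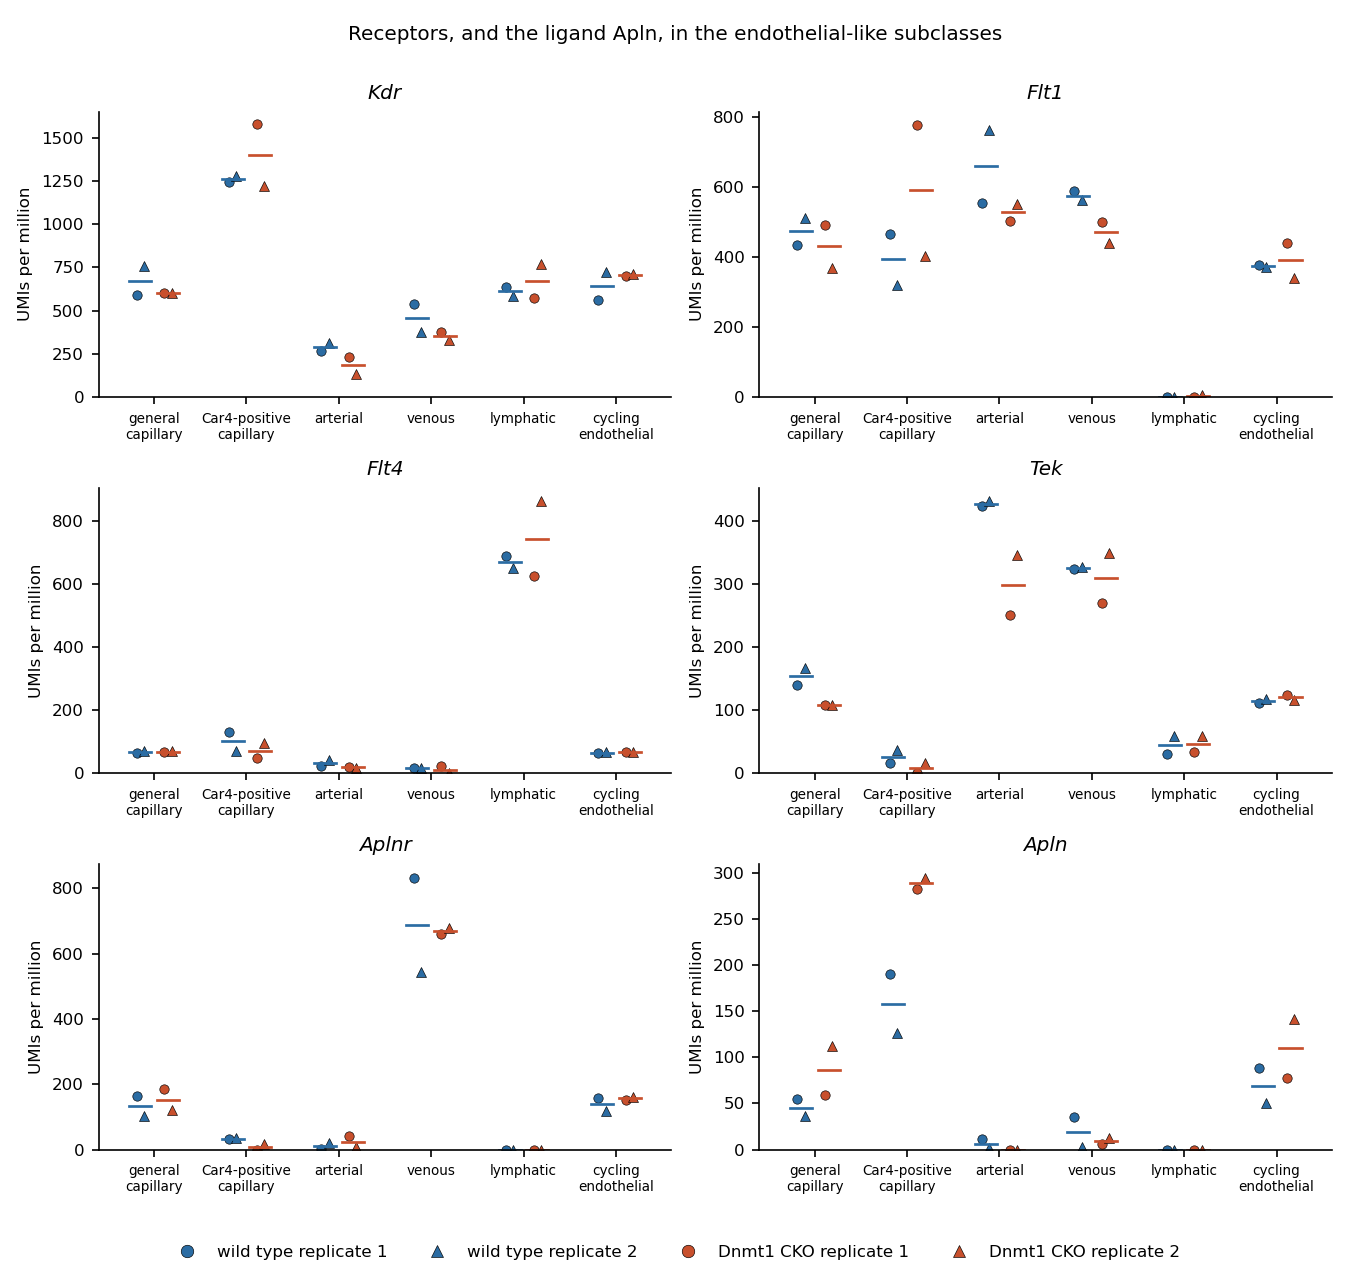
Levels of Kdr, Flt1, Flt4, Tek and Aplnr and of Apln in the endothelial-like subclasses, in CPM on a linear axis, with 1 point per library coloured by genotype and a line at each group's mean. Kdr was highest in Car4-positive capillary-like cells (1221 to 1580 CPM) and Flt4 in lymphatic-like cells (627 to 863 CPM), with the genotypes mixed in both.

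Tek was highest in the larger vessels, at 423, 431, 251 and 346 CPM in arterial-like cells and a mean of 318 CPM in venous-like cells. In general capillary-like cells it was at 140, 167, 108 and 108 CPM, both Dnmt1 CKO libraries lower (log2 fold change -0.47, SE 0.26, unadjusted p = 0.0873, adjusted p above 0.05 by edgeR). All endothelial-like cells together were at 163, 181, 124 and 139 CPM of Tek (log2 fold change -0.34, SE 0.22, unadjusted p = 0.143), likewise without overlap and without a call. Car4-positive capillary-like cells held little Tek (15.7, 36.9, 0 and 15.7 CPM), and the 0 came from 13 cells.

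Apln and its receptor divided the capillary types. Apln was at 191, 126, 283 and 295 CPM in Car4-positive capillary-like cells and 54.6, 36.0, 59.4 and 113 CPM in general capillary-like cells. Both were higher in both Dnmt1 CKO libraries than in either wild type library. The log2 fold changes were 0.89 (SE 0.31, unadjusted p = 0.0037, edgeR adjusted p = 0.694) and 1.01 (SE 0.32, unadjusted p = 0.00465, edgeR adjusted p = 0.829), and neither passed. In general capillary-like cells Dnmt1 CKO replicate 2 carried most of the Apln difference, which was 0.44 without it. At 3000 UMIs per cell an Apln UMI was seen in 14.2%, 5.62%, 4.76% and 16.8% of general capillary-like cells (16.0%, 15.6%, 15% and 27.4% unthinned), so the thinned shares did not separate the genotypes. Immune-like cells had 0% to 0.25% (0% to 0.49% unthinned). Apln was at 0 UMIs in the lymphatic-like cells of all 4 libraries, and so was Aplnr.

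Aplnr had its highest level in venous-like cells, at 833, 545, 662 and 680 CPM, apart from every other class. Cycling endothelial-like cells (mean 148 CPM) and general capillary-like cells followed, with overlapping ranges. General capillary-like cells were at 163, 104, 185 and 121 CPM (log2 fold change 0.23), and Car4-positive capillary-like cells held 31.3, 35.4, 0 and 15.7 CPM. Wild type and Dnmt1 CKO overlapped for Aplnr in venous-like and general capillary-like cells. No member passed edgeR's test of whether the change between genotypes differed between general and Car4-positive capillary-like cells (0.0376% of all genes passed). Each of the 8 members it could test had an edgeR adjusted p of 0.9985 there. In 2 the unadjusted p was under 0.05, Aplnr (1.27, SE 0.62) and Flt1 (-0.52, SE 0.25). With 13 Car4-positive capillary-like cells in Dnmt1 CKO replicate 1, the test cannot show that the changes were alike.

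**Figure D4:**
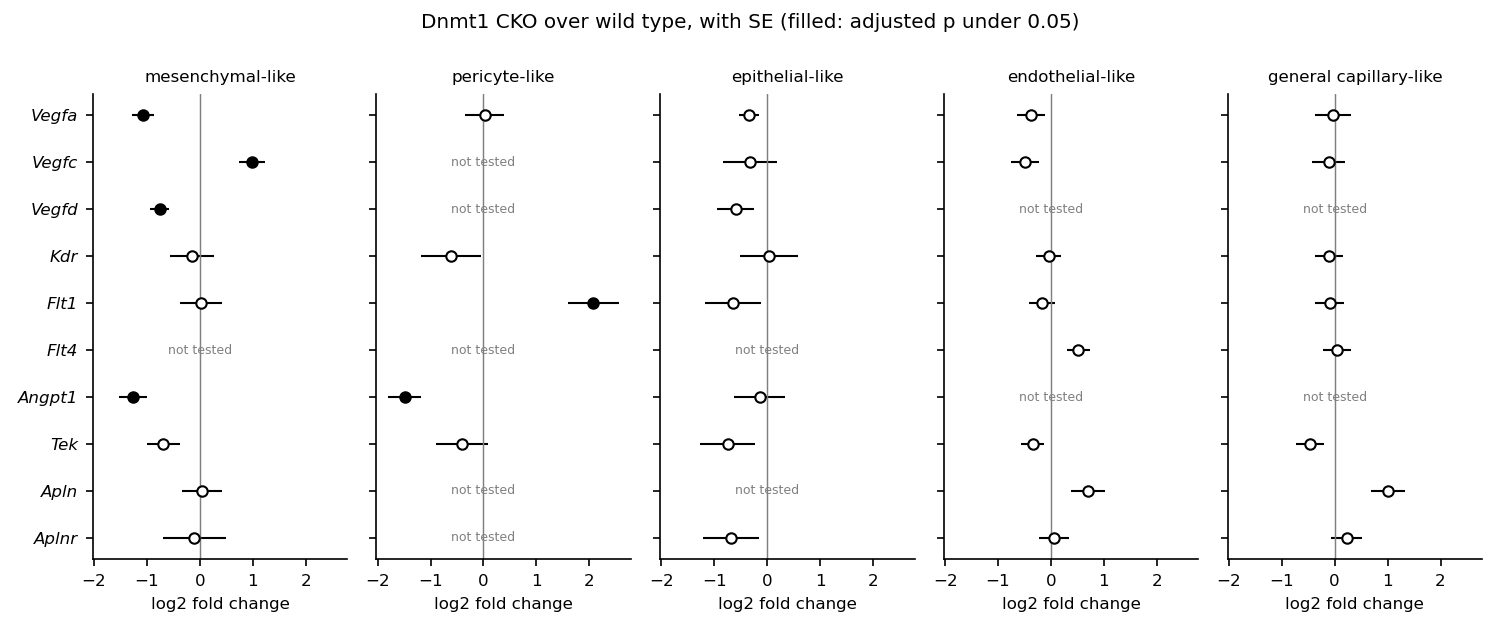
Fitted log2 fold changes of the members (Dnmt1 CKO against wild type) with their SE, by class, with filled points for those called by edgeR at an adjusted p under 0.05. In mesenchymal-like cells Vegfa (-1.07), Vegfd (-0.76) and Angpt1 (-1.26) were called lower, and in endothelial-like and general capillary-like cells no member was called.

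Beside these levels, the number of endothelial-like cells was smaller in Dnmt1 CKO. They made up 12.2% and 14.9% of wild type cells (mean 13.6% ± 1.89, SD, n = 2) and 5.20% and 8.86% of Dnmt1 CKO cells (7.03% ± 2.59, SD, n = 2). The groups did not overlap, but edgeR's test on cell counts did not pass (log2 fold change -0.95, SE 0.40, adjusted p = 0.246). Without Dnmt1 CKO replicate 2 it did, at -1.38 (edgeR adjusted p = 0.0097). General capillary-like cells went from 6.37% and 8.20% to 2.49% and 4.44% (-1.07, edgeR adjusted p = 0.0994), and Car4-positive capillary-like cells from 1.84% and 2.50% to 0.302% and 1.64% (-1.14, edgeR adjusted p = 0.30). Both lacked overlap without a call. For Car4-positive capillary-like cells the value without Dnmt1 CKO replicate 2 was -2.83 and without Dnmt1 CKO replicate 1 -0.40. With counts scaled within the endothelium by TMM, which compares the subclasses with each other, the values were -0.26 for general capillary-like, -0.40 for Car4-positive and -0.12 for arterial-like cells.

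Venous-like cells, the class with the most Aplnr and Vegfc, fell from 0.821% and 0.773% to 0.348% and 0.423% (-1.04, SE 0.16, edgeR adjusted p = 0.0287). The venous call was lost without wild type replicate 1 (-1.0), wild type replicate 2 (-1.08) or Dnmt1 CKO replicate 1 (-0.91). Cycling endothelial-like cells fell from 2.01% and 1.93% to 1.32% and 1.3% (-0.59, edgeR adjusted p = 0.0287), a call that was lost on leaving out any 1 of the 4 libraries and turned to 0.27 when the counts were scaled within the endothelium by TMM. Lymphatic-like cells ran the other way, at 0.156% and 0.122% against 0.302% and 0.264% (1.00, edgeR adjusted p = 0.0562), on 6 to 15 cells per library.

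Summed over all cells, Kdr was at 92.4, 133, 44.2 and 71.7 CPM and Vegfa at 167, 198, 99.0 and 153 CPM. Within general capillary-like cells of Dnmt1 CKO, Kdr was at 603 and 604 CPM, inside the wild type range. Those cells held 26.3%, 38.3%, 24.0% and 26.5% of all Kdr UMIs. The part of the smaller endothelial-like share in the lower Kdr level over all cells was not tested.

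**Figure D5:**
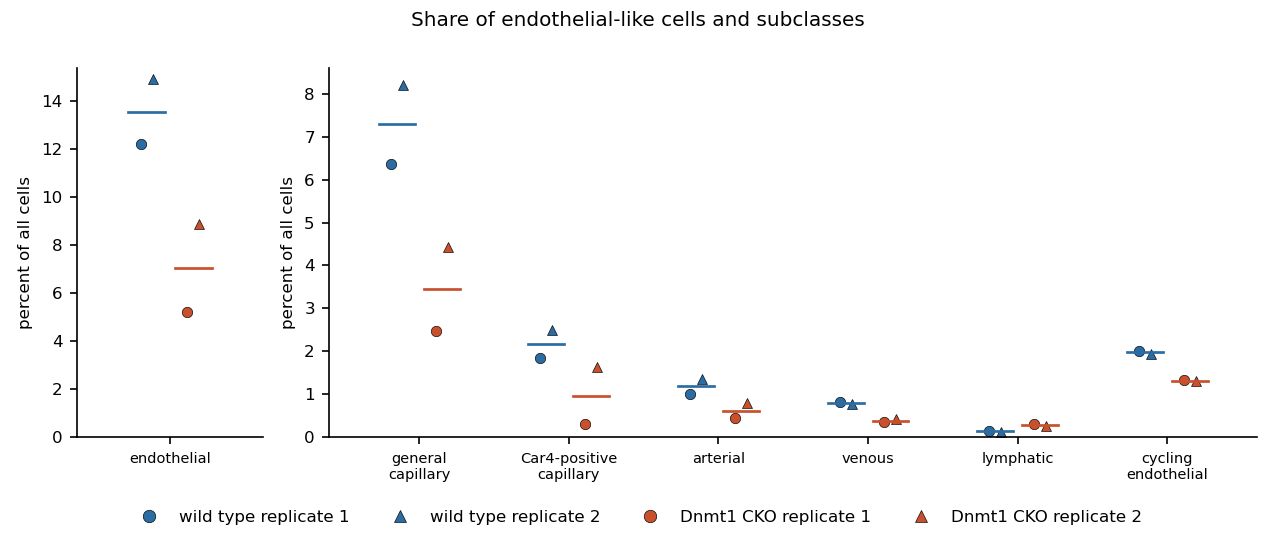
Shares of endothelial-like cells and their subclasses among all cells, in percent on a linear axis, with 1 point per library coloured by genotype and a line at each group's mean. Endothelial-like cells were 12.2% and 14.9% in wild type against 5.20% and 8.86% in Dnmt1 CKO, and lymphatic-like cells ran the other way.

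Other genes of these pathways were followed in 5 lists of 73 genes in all. In mesenchymal-like cells the median log2 fold change over all genes was 0.0033, and 12.8% of them were called, 5.78% lower and 7.03% higher, the background for each list count there. Of 15 tested ligands of related pathways 1 rose and 1 fell, a share near that background, with a list median of -0.13. Slit2, a guidance ligand of Robo receptors, was at 343, 479, 132 and 158 CPM (log2 fold change -1.51, edgeR adjusted p = 0.00303), and Angptl4, an inhibitor of lipoprotein lipase that also acts on vessels, at 19.9, 29.7, 64.0 and 80.7 CPM (1.53, edgeR adjusted p = 0.00347). Both had no overlap between the genotypes. Of 14 co-receptors and other endothelial receptors 0 rose and 3 fell (median -0.12): Plxnd1, a semaphorin receptor (-0.73, edgeR adjusted p = 0.0361), Nrp2, a co-receptor of Vegfc (-0.76, edgeR adjusted p = 0.0452), and S1pr1, a receptor of sphingosine-1-phosphate (-1.18, edgeR adjusted p = 0.0457).

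Of 18 oxygen sensing genes and hypoxia targets 0 rose and 7 fell in mesenchymal-like cells, where 5.78% of all genes fell, with a median of -0.60. In single subclasses fewer passed: 0 in matrix fibroblast-like, adventitial fibroblast-like and myofibroblast-like cells by edgeR. In smooth muscle-like cells 2 of 17 tested were lower, where 10.1% of all genes passed in either direction. Bnip3, a hypoxia-induced mitophagy receptor, was at 64.8, 82.4, 20.7 and 32.5 CPM (-1.48, edgeR adjusted p = 0.00604). Epas1, which encodes HIF-2 alpha, was at -1.23 (edgeR adjusted p = 0.0128) and Hif3a at -0.87 (edgeR adjusted p = 0.0137). Pfkfb3, Egln3, Hif1a and Ankrd37 were the other 4. Of 10 genes of lymphatic growth 3 fell and 0 rose (median -0.15). Ccbe1, which the processing of Vegfc to its active form requires, was at 34.0, 47.9, 12.8 and 15.7 CPM (-1.52, edgeR adjusted p = 0.00274), Adamts3, the protease of that step, at -1.15 (edgeR adjusted p = 0.0313) and the transcription factor Nr2f2 at -0.71 (edgeR adjusted p = 0.0399). In matrix fibroblast-like, adventitial fibroblast-like and myofibroblast-like cells alone, 0 genes of the ligand, receptor and lymphatic growth lists passed. In smooth muscle-like cells alone, 0 rose and 3 fell of 11 tested ligands. For receptors 1 rose and 3 fell of 10, and for lymphatic growth 1 rose and 2 fell of 5.

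Of 11 tested genes known to respond to Vegf in endothelium, 1 rose and 5 fell in mesenchymal-like cells, a class that is not the one the list was named for (median -0.53), beside 7.03% and 5.78% of all genes. In single subclasses 0 passed in matrix fibroblast-like and adventitial fibroblast-like cells. Of 7 tested in myofibroblast-like cells 1 fell, beside 0.333% of all genes called. Of 8 tested in smooth muscle-like cells 1 rose and 3 fell, beside 10.1% of all genes called. Egr3, an immediate early transcription factor, was at 10.2, 12.6, 60.3 and 42.8 CPM (2.15, edgeR adjusted p = 0.000475). Igfbp3, a carrier of insulin-like growth factors, was at 45.1, 52.0, 19.4 and 17.6 CPM (-1.40, edgeR adjusted p = 0.00166), and Rcan1, a calcineurin inhibitor, at -1.01 (edgeR adjusted p = 0.0201), with Hlx, Nrarp and Hey2 also lower. Without the unnamed clusters 9.4% of all genes were called. The counts that rose and fell were then 1 and 1 of 14 tested ligands and 1 and 1 of 13 receptors. They were 1 and 1 of 11 Vegf-responsive genes, 0 and 3 of 17 hypoxia genes and 1 and 1 of 9 lymphatic growth genes.

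In pericyte-like cells 3 of 47 tested list genes passed, beside 2.82% of all genes. These calls are those of Leiden resolution 1, where 234 of 8291 genes were called. At resolution 2.0, where this class held 38 and 89 Dnmt1 CKO cells in place of 101 and 126, 12 of 7703 genes were called. The part of the cluster borders in the 3 calls was not tested. Efnb2, an ephrin of arterial and mural cells, rose from 15.1 and 13.2 to 55.7 and 39.6 CPM (1.70, edgeR adjusted p = 0.00423), and Foxc2, a transcription factor of lymphatic valves and mural cells, from 3.36 and 4.66 to 24.3 and 19.8 CPM (2.06, edgeR adjusted p = 0.00967). Hif3a fell from 49.6 and 64.5 to 15.7 and 25.9 CPM (-1.29, edgeR adjusted p = 0.0436). DESeq2 called 0 of the 47. In the other 7 classes edgeR called 0 of the lists' genes over 342 tests, 42 of which had an unadjusted p under 0.05, and DESeq2 called 0. In endothelial-like cells the Vegf-responsive genes had a median log2 fold change of 0.10 over 13 tested, and in general capillary-like cells of 0.04, beside all-gene medians of 0.0062 and -0.0053.

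Genes whose pattern over 48 sums (12 classes in 4 libraries) was among the most like that of a member were found by Pearson's correlation of log2(CPM + 1) among 9315 genes, as a description, since sums of 1 library share its depth and its free RNA. For Vegfa they were Selenbp1 (r = 0.941), Hs2st1 (0.913) and Slc44a3 (0.901), for Vegfd Brinp1 (0.950), Clec3b (0.945) and Spon1 (0.943), and for Angpt1 Vstm4 (0.937) and Ppp1r14a (0.936). Vegfc was most like Cd34 (0.897), Jcad (0.893) and Ramp2 (0.893). Among the receptors, Kdr was closest to Unc45b (0.939), C130074G19Rik (0.929) and Ackr3 (0.921), and Flt4 to C130074G19Rik (0.957), Tmem255a (0.941) and Kdr itself (0.918). Flt1 was closest to Calcrl (0.920), Gimap6 (0.907) and Cd93 (0.899), and Tek to Tubb2a (0.890), Plvap (0.887) and Ackr3 (0.883). Apln followed Robo4 (0.935), Tmem252 (0.924) and She (0.922), and Aplnr followed Sox18 (0.982), Robo4 (0.978) and Cyyr1 (0.976). The 12 classes were those with at least 20 cells in every library. Lymphatic-like, Car4-positive capillary-like, venous-like, arterial-like, secretory airway-like and ciliated airway-like cells were therefore left out. For Flt4, Kdr, Apln, Vegfc, Aplnr, Flt1 and Tek, the class of highest mean level was among those left out, so these correlations do not cover it.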

How the data were processed

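The deposited files hold UMI counts per gene and cell barcode (filtered Cell Ranger matrices) for each library. Per the submitters' processing notes, Cell Ranger 3.1.0, bcl2fastq 2.20 and Seurat were used with GRCm38.p6. Barcodes with fewer than 500 genes, more than 20% mitochondrial UMIs or a doublet call (scrublet in scanpy 1.11.5, expected rate 6%) were removed. Cells were clustered (2000 variable genes, 30 components, 15 neighbours, Leiden resolution 1) without the 10 genes and the lists, and named from markers. Thresholds for names and the sub-clustering of endothelium were set after the clusters were seen. UMIs were summed per class and library and tested in edgeR 4.0.16 (filterByExpr, TMM, prior count 2, quasi-likelihood F-test, Benjamini-Hochberg over all genes of the class, called under 0.05). DESeq2 1.42.0, RLE factors, library size alone, no filter, a replicate block, sex as a covariate, leave-one-out, other cell filters, other clusterings and other denominators were alternatives. SE is the log2 fold change over the root of F. Cell shares were tested on cell counts in edgeR, and the difference between classes with library as a block. The tests were tried on simulated data first. Named list genes are up to 3 per list and class with the smallest adjusted p, and the genes most like a member are the 3 of highest correlation, of which 1 is not reported here. The members and lists were chosen with earlier results of these data known. Tests of Car4-positive and lymphatic cells, of mesenchymal subclasses and with unnamed clusters were added after the data were seen.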

Additional observations from a re-analysis of the deposited data

How the results depend on the processing

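Of the recomputed counts of called members and cell shares, 195 stayed the same, 13 counts moved, 14 values lost and 9 gained a call, and 1 reversed. For a share, the same means the same direction and side of the threshold, while for a count it allows a small change. Of the recomputed values for single genes, 397 stayed the same, 25 moved, 29 lost and 1 gained a call, and 14 reversed. The cause of each change below was not tested, except that settings on 1 subclass or fewer libraries have fewer cells or samples. Members called in mesenchymal-like cells were 2 with sex as a covariate, 0 in matrix, adventitial or myofibroblast-like cells alone, 1 in smooth muscle-like cells alone, and 1 to 3 leaving out 1 library. In pericyte-like cells they were 1 by DESeq2, 0 at Leiden resolution 2.0 and 0 to 2 leaving out 1 library. Reversed values were Vegfd in adventitial fibroblast-like cells (0.070), Angpt1 in myofibroblast-like cells (0.30), Vegfa in alveolar type 2-like cells (0.29 without the high-UMI cluster), Kdr in Car4-positive cells with no filter (-0.043) and Flt4 in general capillary-like cells with library size alone (-0.0010). Leaving out 1 library in turn gave -0.28 to 0.067 for Vegfa in alveolar type 2-like cells. It gave -0.16 to 0.063 for Kdr and -0.30 to 0.53 for Aplnr in endothelial-like cells, -0.26 to 0.044 for Kdr, -0.32 to 0.10 for Flt1 and -0.098 to 0.60 for Aplnr in general capillary-like cells, and -0.0084 to 0.17 for Kdr in Car4-positive cells.

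For cell shares on the log2 scale, leaving out 1 library gave -1.38 to -0.61 for endothelial-like, -1.55 to -0.71 for general capillary-like, -2.83 to -0.40 for Car4-positive, -1.42 to -0.58 for arterial-like, -1.19 to -0.91 for venous-like and -0.62 to -0.56 for cycling endothelial-like cells. Leiden resolution 2.0 gave -1.45 for general capillary-like (now called), -0.67 for venous-like and -0.67 for cycling endothelial-like cells (no longer called). Venous-like cells also lost their call at Leiden resolution 0.5 (-0.88), with doublets kept (-0.85) and with TMM (-0.22). Cycling endothelial-like cells lost theirs under the strict cell filter (-0.48) and without immune-like and erythroid-like cells in the denominator (-0.47), and reversed with TMM (0.27). That denominator gave 1.12 for lymphatic-like cells, now called.

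The labels give same-numbered libraries only a number in common and do not say whether they shared a litter or batch. Their deviations correlated at r = 0.104 in mesenchymal-like, 0.297 in epithelial-like, 0.104 in endothelial-like and 0.160 in general capillary-like cells, with 2 pairs. With the replicate number as a block, general capillary-like cells had 1 member called (Apln), and the shares of general capillary-like (-1.12), arterial-like (-0.97) and lymphatic-like cells (1.02) passed. The count of members in mesenchymal-like cells was 4 with the block. Over all genes the block raised the calls there from 2069 to 3417 of 16150. In epithelial-like cells they went from 0 to 230 of 15287, and in general capillary-like cells from 0 to 75 of 9577.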
